A study of Mus musculus with 11 samples.

Results

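Transforming growth factor beta (TGF-beta) signaling was examined in the hearts of complete deletion (CD) mice, a model of Williams–Beuren syndrome, and of their WT littermates, with and without the drug JZL184. The 10 genes described here were chosen by name. They are the ligands Tgfb1, Tgfb2 and Tgfb3, the receptors Tgfbr1, Tgfbr2 and Tgfbr3, the intracellular mediators Smad2 and Smad3, the inhibitor Smad7 and the matrix gene Postn. All 10 were found among the 22608 genes of the count table and all 10 passed the expression filter, as did 11319 genes in all.

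RNA from the hearts of 11 male mice was sequenced, which the labels give as ventricle and the study's sequencing methods only as heart. The groups were WT with vehicle (WT VEH, 2 mice), WT with JZL184 (WT JZL184, 3 mice), CD with vehicle (CD VEH, 3 mice) and CD with JZL184 (CD JZL184, 3 mice). The mice were 8 to 16 weeks old on a C57BL/6J background, and injections were given daily for 10 days at 8 mg/kg for JZL184, an inhibitor of monoacylglycerol lipase that raises the endocannabinoid 2-AG. CD mice are heterozygous for a deletion on chromosome 5 from Gtf2i to Fkbp6, which removes a copy of many genes at once, so no effect can be tied to a particular gene of the interval. The treatment field of the labels calls the vehicle mice untreated, whereas their titles give vehicle.

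TGF-beta is secreted in a latent form and stored in the extracellular matrix until integrins, thrombospondins or proteases release it. The active ligand binds the type II receptor Tgfbr2, which recruits and phosphorylates the type I receptor Tgfbr1, often with the help of the co-receptor betaglycan, encoded by Tgfbr3. The receptors phosphorylate SMAD2 and SMAD3, which enter the nucleus with SMAD4, and SMAD7 is induced by the pathway and shuts it down. In the heart the pathway is best known for activating fibroblasts, which then secrete matrix proteins such as periostin, the product of Postn.

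Levels are given as CPM, the counts scaled to a common library size with edgeR's TMM factors, and changes as log2 fold-changes (log2FC) ± their standard error (SE). Differentially expressed genes (DEGs) had an adjusted p-value under 0.05 in edgeR's quasi-likelihood test, fitted to all 11 mice, with Benjamini-Hochberg adjustment over the 11319 genes. The mice of a group are biological replicates. The tests set a difference against the spread between mice of the same group, pooled over the 4 groups and drawn toward that of other genes. An exact test of 2 WT VEH mice against 3 others cannot go below p = 0.1 for a single gene.

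The depth was 69660329 to 92251550 counts a mouse, where 3 counts corresponded to 0.0325 to 0.0431 CPM. All 14 tested genes from Gtf2i to Fkbp6 were lower in each of the 6 CD mice than in each of the 5 WT mice. The ventricular markers Myh6 (8279 to 16035 CPM) and Myl2 (5866 to 8364 CPM) were abundant, and of 4 atrial markers, Myl7 and Sln stayed at or below 0.521 CPM, Myl4 at or below 1.69 CPM and Nppa, which stressed ventricles also express, had 49.2 to 220.2 CPM. CD VEH mouse A stood apart in erythroid genes. Its 4 hemoglobin and heme genes summed to 13291 CPM, against 982 to 3740 CPM in the other mice. For the TGF-beta genes chosen by name, values without this mouse are given where its omission removed a call. For cell type markers and a wider list of pathway genes, only counts of calls without this mouse are given. Whether single calls in those lists depend on it is mostly not shown. The table names mice by letters only.

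The promoters of Tgfb1, Tgfbr2 and Postn are shown because these 3 genes were upregulated by JZL184 in WT hearts. Each line gives the 250 bases before the annotated start, 5′ to 3′ on the gene's strand, from RefSeq on GRCm38.p6. Capitals mark CAGAC, the core of a SMAD-binding element, GGGCGG, a GC box, and TATAAA, each searched on both strands with overlaps allowed.
Tgfb1 (chr7:25686752-25687001, plus strand): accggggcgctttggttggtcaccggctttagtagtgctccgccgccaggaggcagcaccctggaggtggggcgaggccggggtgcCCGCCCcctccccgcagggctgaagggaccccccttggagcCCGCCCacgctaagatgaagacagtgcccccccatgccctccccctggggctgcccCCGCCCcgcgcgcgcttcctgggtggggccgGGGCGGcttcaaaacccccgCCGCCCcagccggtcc
Tgfbr2 (chr9:116175364-116175613, minus strand): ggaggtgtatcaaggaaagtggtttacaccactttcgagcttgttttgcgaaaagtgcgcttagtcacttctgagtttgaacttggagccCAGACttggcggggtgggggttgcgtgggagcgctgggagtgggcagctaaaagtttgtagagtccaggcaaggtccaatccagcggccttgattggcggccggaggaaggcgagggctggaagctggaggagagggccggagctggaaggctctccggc
Postn (chr3:54360857-54361106, plus strand): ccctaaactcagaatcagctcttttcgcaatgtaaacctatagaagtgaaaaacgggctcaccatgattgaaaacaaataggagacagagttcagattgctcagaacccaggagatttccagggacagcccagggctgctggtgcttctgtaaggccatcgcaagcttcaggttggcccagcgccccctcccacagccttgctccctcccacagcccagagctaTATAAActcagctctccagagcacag

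The 3 promoters differed in these letters. Tgfb1 held 5 GC boxes in a window of 75.2% G and C, Tgfbr2 held 1 CAGAC, and Postn held 1 TATAAA in a window of 52.0% G and C. Among 32851 RefSeq windows of the same length, CAGAC occurred in 42.2%, GGGCGG in 32.7% and TATAAA in 12.4%. Of the other members with an entry, Tgfb2 held 2 CAGAC and 1 TATAAA, and Tgfbr1 and Smad3 held 2 GC boxes each. The entries covered 6 of the 10 genes, without Tgfb3, Tgfbr3, Smad2 and Smad7. A match in these windows is a description of the sequence.

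Levels of the 10 genes in WT VEH hearts were first compared per kb of the longest transcript. Postn had the highest level, at 7.79 ± 0.735 (SD, n = 2) CPM per kb, followed by Tgfbr3 at 5.26 ± 0.00645, Tgfb1 at 4.77 ± 0.0401 and Tgfbr2 at 4.50 ± 0.144 CPM per kb. Smad3 (3.30 CPM per kb), Tgfb3 (3.19 CPM per kb) and Tgfbr1 (3.13 CPM per kb) lay close together. Smad7 (1.49 CPM per kb), Smad2 (1.37 CPM per kb) and Tgfb2 (0.805 CPM per kb) were lowest. Ligands and receptors were thus present at levels of the same order, apart from Tgfb2.

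**Figure D1:**
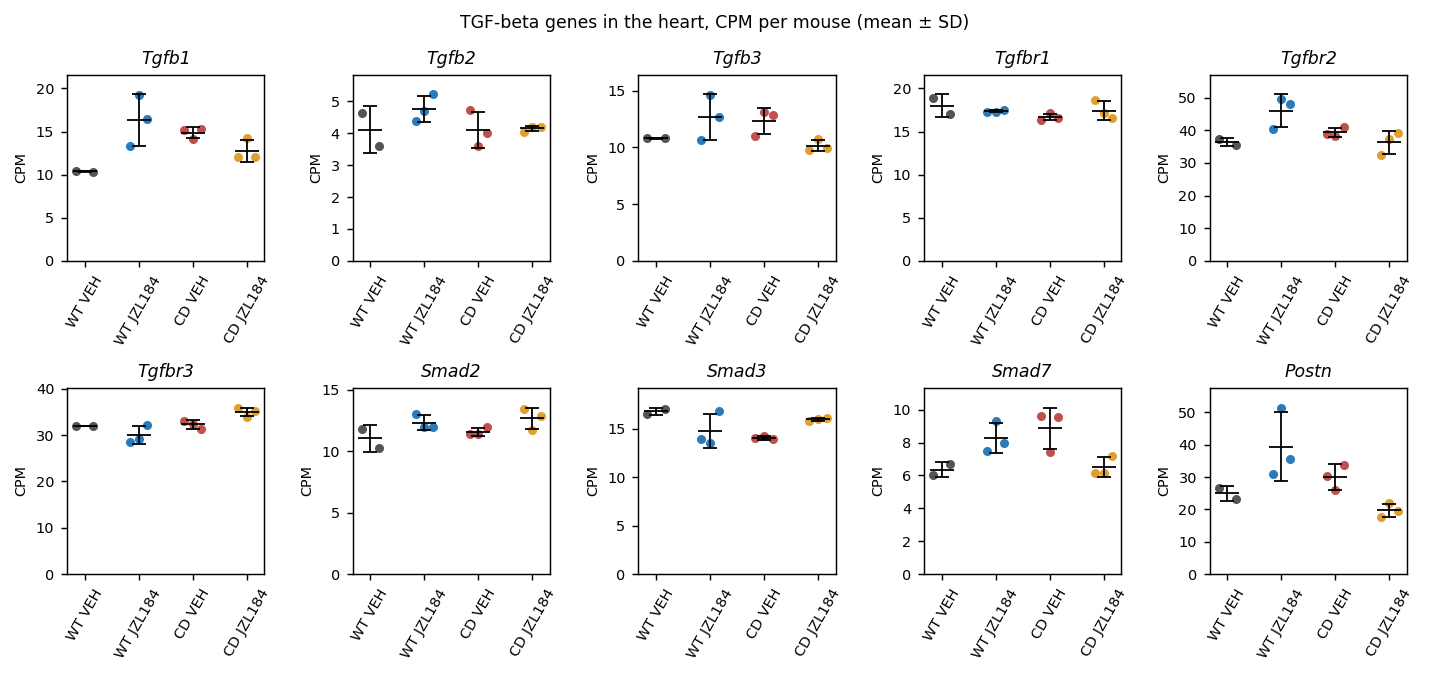
CPM of the 10 TGF-beta genes in each of the 11 mice (points), by group, with the group mean and SD (black bars, n = 2 in WT VEH and 3 elsewhere). Tgfb1 sits at 10.3 and 10.4 CPM in WT VEH and at 12.0 CPM or more in every other mouse, Postn is lowest in CD JZL184 (17.8 to 21.8 CPM), and Tgfbr1 and Smad2 show little separation between groups.

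The first question was how the deletion changed these genes under vehicle. In CD VEH hearts Tgfb1 and Smad7 were upregulated and Smad3 was downregulated relative to WT VEH, which makes 3 of 10 genes. Over all tested genes 30.4% were DEGs in this comparison, 15.0% higher and 15.4% lower, so the share among the 10 genes was near the background. The median log2FC of the 10 genes was 0.09, beside 0.0087 for all genes tested. The tissue was sequenced in bulk, where fewer cells of a type and less RNA per cell cannot be told apart, and the summed levels of macrophage and endothelial markers in CD VEH were 1.46 and 1.36 times the WT VEH mean. Their part in the changes was not tested.

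Tgfb1 (ENSMUSG00000002603, chromosome 7, 25687002 to 25705077 of GRCm38) encodes the ligand most often linked to fibrosis. In WT VEH it stood at 10.4 and 10.3 CPM. The 3 CD VEH mice had 15.2, 14.1 and 15.3 CPM, so the groups did not overlap. The log2FC was 0.52 ± 0.13 (adjusted p = 0.0139 by edgeR), higher in 3 of 3 CD VEH mice. With WT VEH mouse C left out the adjusted p was 0.0867, and with WT VEH mouse D left out it was 0.0815, while the log2FC stayed at 0.53 and 0.51.

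JZL184 raised Tgfb1 in WT hearts. The WT JZL184 mice had 13.3, 19.2 and 16.5 CPM, all above both WT VEH mice but widely spread. The log2FC was 0.65 ± 0.13 (adjusted p = 0.00607 by edgeR), and without WT VEH mouse C the adjusted p was 0.0545. In CD hearts JZL184 left Tgfb1 at 12.0, 14.2 and 12.1 CPM, a range that touched that of CD VEH (log2FC -0.22 ± 0.11, adjusted p = 0.154 by edgeR).

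The response of Tgfb1 to JZL184 differed between genotypes. The interaction, which is the log2FC by JZL184 in CD minus that in WT mice, was -0.87 ± 0.17 (adjusted p = 0.00173 by edgeR). It was called in 16 of 16 alternatives. Across the groups the order of the means was WT JZL184, CD VEH, CD JZL184 and WT VEH, and among neighbours only CD JZL184 and WT VEH did not overlap.

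Tgfb2 (ENSMUSG00000039239, chromosome 1, 186622792 to 186705989), the ligand with the lowest level, had 4.65 and 3.59 CPM in WT VEH, and the 9 other mice ran from 3.595 to 5.22 CPM. It was not a DEG in any comparison, with 0.223 as the lowest adjusted p. Tgfb3 (ENSMUSG00000021253, chromosome 12, 86056745 to 86079041) is a ligand that shares the receptors of Tgfb1. It had 10.8 CPM in both WT VEH mice, 10.7, 14.6 and 12.7 CPM in WT JZL184, 11.03, 13.1 and 12.9 CPM in CD VEH, and 9.75, 10.7 and 9.95 CPM in CD JZL184. Every CD VEH mouse was above every CD JZL184 mouse, yet the comparison missed the threshold (log2FC -0.28 ± 0.10, adjusted p = 0.0564 by edgeR). It passed with DESeq2 (adjusted p 0.0467) and when only the compared groups were fitted (0.0213).

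Tgfb3 was lower in CD JZL184 than in WT JZL184 (log2FC -0.32 ± 0.10, adjusted p = 0.0321 by edgeR), although the groups overlapped. Without WT JZL184 mouse B the adjusted p was 0.131, without WT JZL184 mouse D it was 0.0696, and without CD JZL184 mouse A or E it was 0.0955 and 0.0895. The call for Tgfb1 in the same comparison (log2FC -0.35 ± 0.11, adjusted p = 0.0299 by edgeR) was lost without the same mice, with an adjusted p of 0.121 without WT JZL184 mouse B, 0.0696 without WT JZL184 mouse D and 0.0979 and 0.1003 without CD JZL184 mouse A or E. The overlap of both genes there came from WT JZL184 mouse A, at 13.3 CPM for Tgfb1 and 10.7 CPM for Tgfb3.

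The makeup of the ligand pool was described as the share of each ligand in their summed CPM per kb. Tgfb1 made up 54.4% ± 0.653 (SD, n = 2) in WT VEH, 61.5% ± 1.19 (SD, n = 3) in WT JZL184, 60.6% ± 1.91 in CD VEH and 60.6% ± 1.38 in CD JZL184. The 2 WT VEH mice, at 53.9% and 54.9%, were below the 58.7% to 62.7% of the 9 other mice. Tgfb3 made up 36.4% ± 0.834 in WT VEH and between 30.7% and 32.3% on average in the other groups, and Tgfb2 made up 7.12% to 9.17%. The mean ligand shares of CD JZL184 hearts thus lay closer to those of CD VEH and WT JZL184 than to those of WT VEH for Tgfb1 and Tgfb3. The depth bears on these shares little, since each ligand had 289 counts or more in every mouse.

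**Figure D2:**
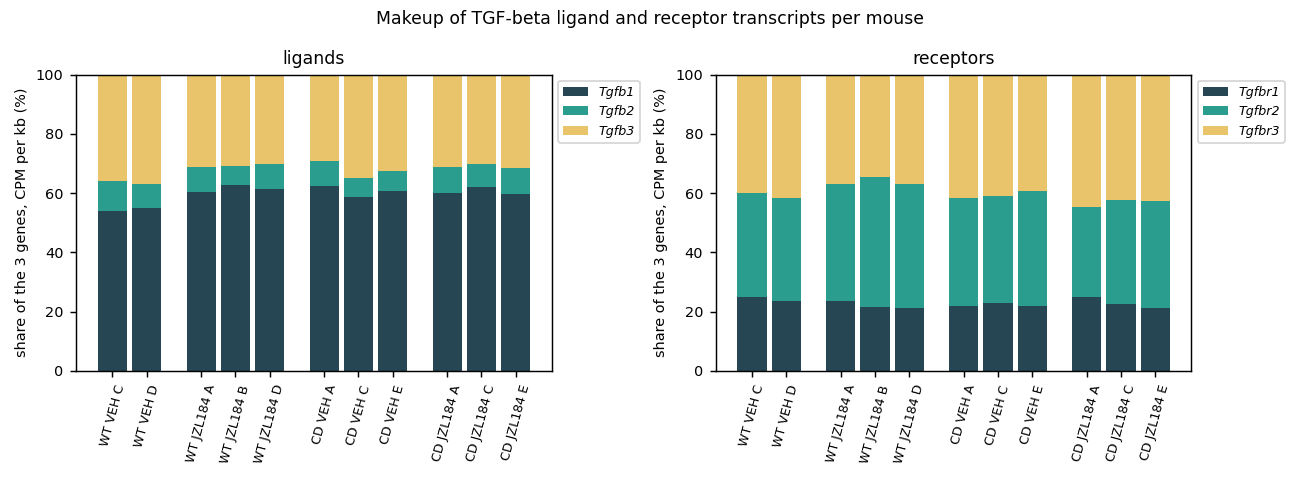
Share of each gene in the summed CPM per kb of the 3 ligands (left) and the 3 receptors (right), as stacked bars that add to the whole in each of the 11 mice. The Tgfb1 part is smallest in the 2 WT VEH mice (53.9% and 54.9%), and the Tgfbr2 part is largest in the 3 WT JZL184 mice (39.3% to 44.0%).

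Among the receptors, Tgfbr2 alone passed the threshold under JZL184 in WT hearts. Tgfbr2 (ENSMUSG00000032440, chromosome 9, 116084293 to 116175360), the receptor that binds the ligand first, had 37.2 and 35.6 CPM in WT VEH and 40.4, 49.5 and 48.1 CPM in WT JZL184. The groups did not overlap, with a log2FC of 0.34 ± 0.10 (adjusted p = 0.0246 by edgeR). This call was lost without WT VEH mouse C (adjusted p 0.101) or D (0.141) and without WT JZL184 mouse B (0.0668) or D (0.0602).

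In CD hearts Tgfbr2 had 38.9, 38.2 and 41.0 CPM under vehicle and 32.4, 37.3 and 39.2 CPM under JZL184, and these ranges overlapped. CD VEH was not significantly different from WT VEH (log2FC 0.11 ± 0.10, adjusted p = 0.393 by edgeR), nor was CD JZL184 from CD VEH (log2FC -0.12 ± 0.09, adjusted p = 0.318 by edgeR). Between the treated groups Tgfbr2 was lower in CD mice, with a log2FC of -0.34 ± 0.09 (adjusted p = 0.0102 by edgeR), a call that held in 12 of 12 alternatives without a block at a threshold of 0.05 but not at a threshold of 0.01. The interaction was -0.45 ± 0.13 (adjusted p = 0.0127 by edgeR), and its adjusted p was 0.0560 without WT VEH mouse D.

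Tgfbr1 (ENSMUSG00000007613, chromosome 4, 47353222 to 47414931), which encodes the receptor kinase that phosphorylates SMAD2 and SMAD3, was the steadiest of the receptors across groups. Its levels were 18.9 and 17.1 CPM in WT VEH and 16.4 to 18.7 CPM in the 9 other mice, with no DEG call in any comparison (lowest adjusted p 0.250). Tgfbr3 (ENSMUSG00000029287, chromosome 5, 107106570 to 107289629), the co-receptor, differed in the opposite direction from Tgfbr2 between the treated groups. It had 32.0 CPM in both WT VEH mice, 28.6, 29.2 and 32.2 CPM in WT JZL184, 33.2, 32.5 and 31.4 CPM in CD VEH, and 35.8, 33.9 and 35.2 CPM in CD JZL184. CD JZL184 was above each of the other groups without overlap.

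Tgfbr3 was a DEG between the treated groups only, where CD JZL184 exceeded WT JZL184 with a log2FC of 0.22 ± 0.06 (adjusted p = 0.0110 by edgeR), in 12 of 12 alternatives without a block at a threshold of 0.05 but not at a threshold of 0.01. It lies on chromosome 5 but outside the deleted interval. The share of Tgfbr2 among the receptors, per kb, was 41.7% ± 2.34 (SD, n = 3) in WT JZL184 and 33.8% ± 2.91 in CD JZL184. That of Tgfbr3 was 36.2% ± 1.49 and 43.3% ± 1.28 in the same groups. The receptor with the largest mean share per kb was therefore Tgfbr2 in WT JZL184 and Tgfbr3 in the 3 other groups. In CPM not divided by length it was Tgfbr2 in all 4 groups (42.1% against 37.1% for Tgfbr3 in WT VEH and 40.9% against 39.4% in CD JZL184).

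Of the receptor-activated SMADs, Smad3 passed the threshold and Smad2 did not. Smad3 (ENSMUSG00000032402, chromosome 9, 63646767 to 63757994), which binds DNA and carries most of the fibrotic response, had 16.6 and 17.0 CPM in WT VEH and 14.02, 14.2 and 13.9 CPM in CD VEH. The groups did not overlap, and the log2FC was -0.26 ± 0.08 (adjusted p = 0.0365 by edgeR). The call was present in 4 of 11 alternatives. It was missing when any of the 5 mice was dropped (adjusted p 0.0544 to 0.165), without the filter on low counts (0.0583) and with an offset for gene length (0.111).

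Under JZL184, Smad3 stood at 15.8, 15.95 and 16.1 CPM in CD mice, above every CD VEH mouse (log2FC 0.18 ± 0.07, adjusted p = 0.0756 by edgeR). In WT JZL184 it had 13.9, 13.6 and 16.8 CPM, so mouse D overlapped WT VEH. The interaction of Smad3 was 0.37 ± 0.11 (adjusted p = 0.0165 by edgeR), the reverse sign of that of Tgfb1, and its adjusted p was 0.0601 without WT VEH mouse D and 0.0898 with the length offset. Smad2 (ENSMUSG00000024563, chromosome 18, 76241580 to 76310963), the other receptor-activated SMAD, had 11.8 and 10.2 CPM in WT VEH and 11.4 to 13.4 CPM in the 9 other mice. It was not a DEG in any comparison (lowest adjusted p 0.167). With the length offset it was called higher in CD VEH (log2FC 0.26, adjusted p 0.0363) and in WT JZL184 (log2FC 0.30, adjusted p 0.0180) than in WT VEH, and its interaction was called too (log2FC -0.35, adjusted p 0.0175).

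Smad7 (ENSMUSG00000025880, chromosome 18, 75367529 to 75395935), the inhibitory SMAD that is itself a TGF-beta target, followed the direction of Tgfb1. It had 6.04 and 6.67 CPM in WT VEH and 9.59, 7.44 and 9.58 CPM in CD VEH, with a log2FC of 0.48 ± 0.13 (adjusted p = 0.0203 by edgeR). All 3 CD VEH mice were above both WT VEH mice. The call was lost without WT VEH mouse C (adjusted p 0.149) or D (0.0666) and without CD VEH mouse A (0.0694) or E (0.0670).

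JZL184 lowered Smad7 in CD hearts to 6.15, 6.16 and 7.19 CPM, below every CD VEH mouse and within the range of WT VEH or just above it. The log2FC was -0.45 ± 0.12 (adjusted p = 0.0140 by edgeR), and the adjusted p was 0.0622 without CD VEH mouse A or E and 0.0507 without CD JZL184 mouse A. In WT hearts Smad7 had 7.52, 9.29 and 7.99 CPM under JZL184, above both WT VEH mice, and the comparison narrowly missed the threshold (log2FC 0.38 ± 0.13, adjusted p = 0.0517 by edgeR). It was called there by DESeq2 (adjusted p 0.0296), with RLE scaling (0.0497), with the length offset (0.0436) and without WT JZL184 mouse A (0.0289). The interaction was -0.83 ± 0.18 (adjusted p = 0.00263 by edgeR) and was called in 16 of 16 alternatives.

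Smad7 was also lower in CD JZL184 than in WT JZL184, with a log2FC of -0.35 ± 0.12 (adjusted p = 0.0360 by edgeR). The call was lost without WT JZL184 mouse B (adjusted p 0.127) or D (0.0580) and without CD JZL184 mouse A (0.109) or C (0.103). Its lowest mean was in WT VEH and its highest in CD VEH, and CD JZL184 and WT VEH overlapped.

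Postn (ENSMUSG00000027750, chromosome 3, 54361109 to 54391037), which encodes the matrix protein made by activated fibroblasts, had the largest absolute log2FC of the 10 genes in each comparison between JZL184 and vehicle within a genotype and between the treated groups. Under JZL184 in WT hearts its lead over Tgfb1 was well within the SE (log2FC 0.659 against 0.655). It had 26.6 and 23.3 CPM in WT VEH and 31.1, 51.4 and 35.7 CPM in WT JZL184. JZL184 thus raised it in WT hearts (log2FC 0.66 ± 0.18, adjusted p = 0.0214 by edgeR), without overlap between the groups. This call was lost without WT VEH mouse C (adjusted p 0.0824) or D (0.142) and when only the compared groups were fitted (0.0520).

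In CD hearts the direction was the opposite. Postn had 30.5, 26.0 and 33.7 CPM under vehicle and 17.8, 21.8 and 19.4 CPM under JZL184, again without overlap, and the log2FC was -0.61 ± 0.16 (adjusted p = 0.0154 by edgeR). Leaving out CD VEH mouse E (adjusted p 0.0658) or CD JZL184 mouse A (0.0579) or E (0.0511) removed the call. CD VEH itself overlapped WT VEH (log2FC 0.27 ± 0.18, adjusted p = 0.275 by edgeR).

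Between the treated groups Postn was lower in CD JZL184, at 19.7 ± 2.03 CPM, than in WT JZL184, at 39.4 ± 10.7 CPM (log2FC -1.0 ± 0.16, adjusted p = 0.00144 by edgeR). All 12 alternatives kept this call, and gave log2FC values from -1.15 to -0.76, the latter without WT JZL184 mouse B, the mouse with 51.4 CPM. The interaction was -1.27 ± 0.25 (adjusted p = 0.00148 by edgeR) and was called in 16 of 16 alternatives.

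**Figure D3:**
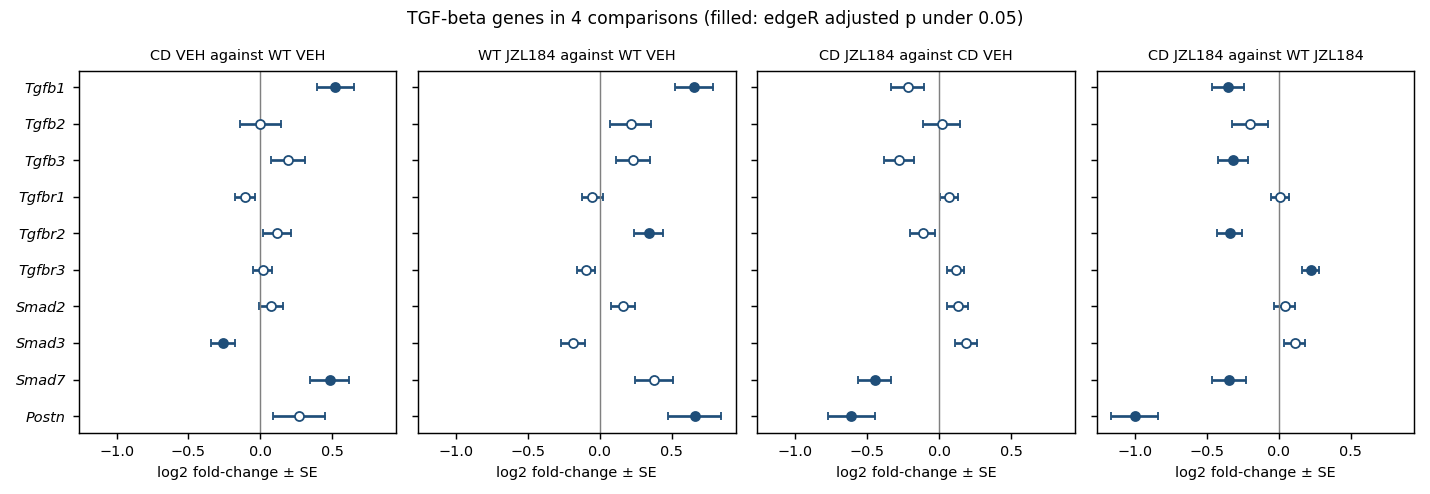
Log2FC with its SE (horizontal axis) of the 10 genes in 4 comparisons, filled where edgeR's adjusted p was under 0.05. Filled points lie at 0.34 to 0.66 for WT JZL184 against WT VEH, at -0.45 and -0.61 for CD JZL184 against CD VEH, and Tgfbr3 (0.22) is the only filled point above 0 for CD JZL184 against WT JZL184.

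By comparison, JZL184 in WT hearts gave 3 DEGs of 10, all higher, where 29.4% of all genes were DEGs (15.4% higher and 14.0% lower). JZL184 in CD hearts gave 2 DEGs, both lower, where 33.8% of all genes were DEGs (16.8% higher and 17.0% lower). With only the compared groups in the fit these counts were 1 and 5, so neither is read as above or below the background. Between the treated groups, 6 of 10 were DEGs, 1 higher and 5 lower, beside 38.3% of all genes (18.2% higher and 20.1% lower). The interaction was significant for 6 of 10, 1 higher and 5 lower, beside 51.5% of all genes (25.3% higher and 26.2% lower).

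CD JZL184 hearts were last set against WT VEH hearts. None of the 10 genes was a DEG by edgeR, where 0.186% of all genes were (0.0442% higher and 0.141% lower), and DESeq2 called 0 as well. At an unadjusted p-value under 0.05 there were 2, Tgfb1 (log2FC 0.30, unadjusted p = 0.0395, adjusted p = 0.505 by edgeR) and Smad2 (log2FC 0.20, unadjusted p = 0.0343, adjusted p = 0.486 by edgeR), where 9.38% of all genes passed that threshold. For Tgfb1 the 3 CD JZL184 mice were all above both WT VEH mice, and for Postn all were below them (log2FC -0.34 ± 0.18, adjusted p = 0.587 by edgeR). A missed threshold does not show that the levels were equal. The comparisons share mice, since WT VEH and CD VEH each enter more than 1 of them, and a high or low control moves all of its comparisons.

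The wider pathway was read from a list of 101 genes in 7 classes, of which 79 passed the filter. In CD VEH against WT VEH 24 of the 79 were DEGs, 14 higher and 10 lower, near the background of 30.4%. This number fell without either WT VEH mouse. JZL184 gave 30 DEGs in WT hearts (21 higher and 9 lower), where 29.4% of all genes were DEGs, and 27 in CD hearts (10 higher and 17 lower), where 33.8% were. Between the treated groups 37 differed (10 higher and 27 lower), beside 38.3% of all genes. The counts by class that follow are to be read against the same shares. In WT hearts the number was 13 without WT JZL184 mouse B, and it also fell without either WT VEH mouse. In CD hearts it was 15 and 16 without CD JZL184 mouse A or E, and 17 and 14 without CD VEH mouse A or E. Without WT JZL184 mouse B 24 differed between the treated groups. No share over all genes is given for the fits with a mouse left out, so these numbers are not read against a background. The genes that lost their call in these fits are not listed. Calls of the genes named below may therefore rest on single mice, CD VEH mouse A among them.

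Of 16 tested genes that hold or release latent TGF-beta, 3 were higher and 2 lower in CD VEH than in WT VEH. The other 11 were not DEGs, and the share was near the background of 30.4%. Lrrc32, which anchors latent TGF-beta at the cell surface, had 9.74 ± 1.22 (SD, n = 2) CPM in WT VEH, 17.4 ± 1.19 (SD, n = 3) in WT JZL184, 16.9 ± 1.68 in CD VEH and 11.1 ± 1.55 in CD JZL184. Its log2FC was 0.80 in CD VEH against WT VEH (SE 0.13, adjusted p = 0.00306 by edgeR), 0.83 under JZL184 in WT mice and -0.60 under JZL184 in CD mice.

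Nrros, the related anchor of macrophages and microglia, was higher by 0.58 in CD VEH (adjusted p = 0.0273 by edgeR), rose by 0.64 under JZL184 in WT mice (adjusted p = 0.0182 by edgeR) and fell by 0.48 under JZL184 in CD mice (adjusted p = 0.0301 by edgeR). Thbs2, a thrombospondin, was higher by 0.44 in CD VEH (adjusted p = 0.0355 by edgeR) and rose by 0.46 under JZL184 in WT mice (adjusted p = 0.0314 by edgeR). Under JZL184 in CD mice Thbs2 was not a DEG (log2FC -0.20, adjusted p = 0.234 by edgeR). Itgb6, the beta subunit of an integrin that activates latent TGF-beta, went the other way. It had 13.7 ± 0.577 CPM in WT VEH, 10.4 ± 1.31 in WT JZL184, 9.98 ± 0.797 in CD VEH and 13.6 ± 1.22 in CD JZL184. Its log2FC was -0.45 for CD VEH over WT VEH (adjusted p = 0.0123 by edgeR), -0.39 under JZL184 in WT mice (adjusted p = 0.0221 by edgeR) and 0.44 under JZL184 in CD mice (adjusted p = 0.0073 by edgeR).

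Among the relatives of the ligands, 4 were tested and Bmp6, a bone morphogenetic protein of endothelium, was the DEG in CD VEH. It had 12.7 ± 3.06 CPM in WT VEH, 23.7 ± 2.66 in WT JZL184, 18.4 ± 1.14 in CD VEH and 12.8 ± 0.913 in CD JZL184 (log2FC 0.54 for CD VEH over WT VEH, adjusted p = 0.0142 by edgeR). Of 9 other receptors, 1 was higher and 3 lower in CD VEH. Acvrl1, the endothelial type I receptor, was higher by 0.35 (adjusted p = 0.0144 by edgeR), whereas the type II receptor Bmpr2 was lower, from 75.8 ± 5.53 to 56.0 ± 2.65 CPM (log2FC -0.44, adjusted p = 0.0041 by edgeR). Bmpr1a (-0.35) and Acvr2a (-0.30) were also lower.

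SMADs and their cofactors had 4 DEGs of 7 in CD VEH, 1 higher and 3 lower. Smad1, a mediator of bone morphogenetic proteins, was higher by 0.26 (adjusted p = 0.0270 by edgeR). Zfyve9, which presents SMAD2 and SMAD3 to the receptor, was lower, from 34.8 ± 1.19 to 27.5 ± 1.39 CPM (log2FC -0.34, adjusted p = 0.0127 by edgeR), as were its relative Zfyve16 (-0.35) and the ubiquitin ligase Trim33 (-0.24). JZL184 raised Zfyve9 (0.26, adjusted p = 0.0231 by edgeR) and Trim33 (0.23, adjusted p = 0.0177 by edgeR) in CD hearts and lowered both in WT hearts (Zfyve9 -0.25, adjusted p = 0.0402, and Trim33 -0.20, adjusted p = 0.0478 by edgeR).

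Negative regulators had 3 DEGs of 13 in CD VEH. Dcn, whose product decorin binds TGF-beta, had 379 ± 19.4 CPM in WT VEH, 576 ± 57.2 in WT JZL184, 512 ± 37.6 in CD VEH and 365 ± 10.8 in CD JZL184. Its log2FC was 0.43 for CD VEH over WT VEH (adjusted p = 0.00848 by edgeR), 0.60 under JZL184 in WT mice (adjusted p = 0.00267 by edgeR) and -0.49 under JZL184 in CD mice (adjusted p = 0.00293 by edgeR). Tgif1, a SMAD co-repressor, was higher by 0.64 (adjusted p = 0.0238 by edgeR), and Nedd4l, a ubiquitin ligase of SMADs, was lower, with a log2FC of -0.34 (adjusted p = 0.00995 by edgeR). Under JZL184 Tgif1 rose by 0.66 in WT and fell by 0.52 in CD hearts, and Nedd4l had a log2FC of -0.24 in WT and 0.31 in CD hearts, all DEGs. Dcn is also on the fibroblast marker list, and 6 genes in all stand on both the pathway and the marker lists (Acta2, Cnn1, Col1a1, Col1a2, Dcn and Tagln).

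Of 23 target genes tested, 7 were DEGs in CD VEH, near the background share of 30.4%, with 6 higher and 1 lower. JZL184 gave 9 higher and 1 lower in WT hearts and 7 lower and none higher in CD hearts, where 33.8% of all genes were DEGs and 16 of the 23 were not. Between the treated groups 14 were lower. Their median log2FC was 0.21 in CD VEH against WT VEH, 0.35 under JZL184 in WT mice, -0.32 under JZL184 in CD mice and -0.48 between the treated groups, beside medians between -0.0026 and 0.0087 over all genes tested.

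Id3, a transcriptional inhibitor that responds mainly to bone morphogenetic proteins, had 26.8 ± 1.63 CPM in WT VEH, 44.5 ± 6.17 in WT JZL184, 49.7 ± 5.94 in CD VEH and 27.4 ± 1.03 in CD JZL184 (log2FC 0.89 for CD VEH over WT VEH, adjusted p = 0.00182 by edgeR). Sparc, a matrix protein of fibroblasts and endothelium, was higher by 0.71 in CD VEH (adjusted p = 0.0147 by edgeR) and Tagln, a smooth muscle protein, by 0.70 (adjusted p = 0.0251 by edgeR). Both fell under JZL184 in CD hearts, by 0.65 and 0.85 on the log2 scale, and both rose under it in WT hearts, by 0.70 (adjusted p = 0.0154 by edgeR) and 1.15 (adjusted p = 0.00407 by edgeR). The early response gene Junb was higher by 0.87 in CD VEH (adjusted p = 0.0386 by edgeR). The 5 collagen genes of the list, Col1a1, Col1a2, Col3a1, Col4a1 and Col5a1, were not DEGs in any comparison. Col1a1 had a log2FC of -0.0021 for CD VEH over WT VEH and 0.05 under JZL184 in CD mice, and Col3a1 had 0.28 (adjusted p = 0.190 by edgeR) and -0.22 (adjusted p = 0.238 by edgeR). Tagln is also a smooth muscle marker here, and Col1a1 and Col1a2 are also fibroblast markers.

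**Figure D4:**
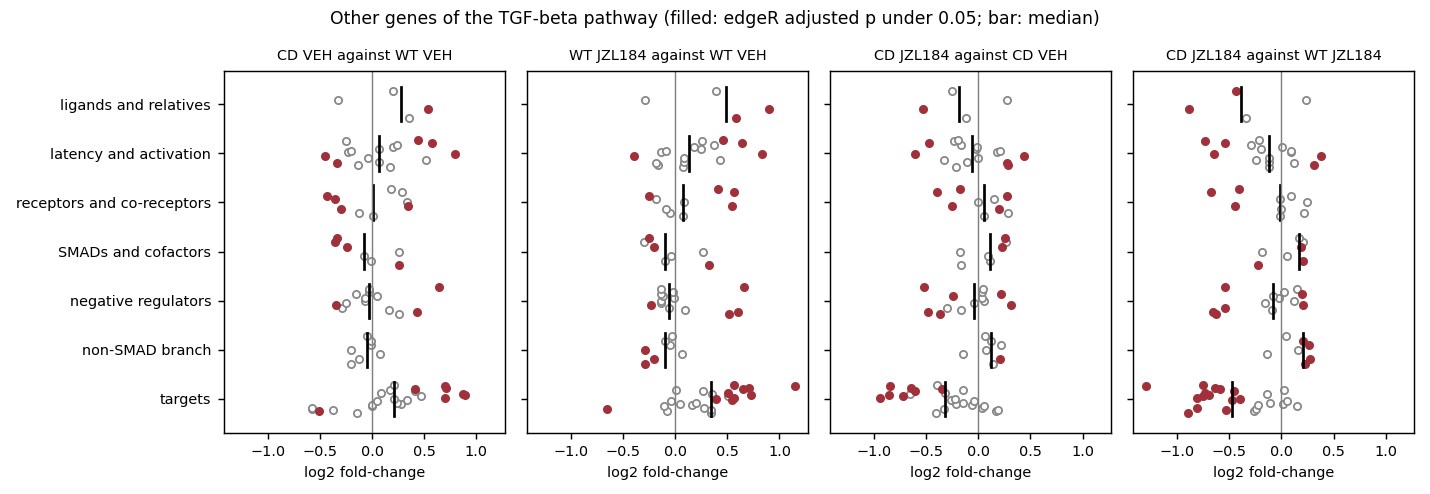
Log2FC of the tested genes of the wider pathway list by class (rows) in 4 comparisons, filled where edgeR's adjusted p was under 0.05, with the class median as a black bar. The target class has medians of 0.21 and 0.35 in the comparisons with WT VEH and of -0.32 and -0.48 in the comparisons of CD JZL184.

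In CD JZL184 against WT VEH, none of the 79 genes was a DEG by edgeR, 7 had an unadjusted p-value under 0.05 (9.38% of all genes did), and DESeq2 called 1. This was Cdkn1a, a cell cycle inhibitor named after its values were seen (log2FC -0.90 and adjusted p = 0.184 by edgeR).

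Summed markers of several cell types of the heart moved with the same groups. In WT JZL184, CD VEH and CD JZL184 in turn, the summed CPM of the macrophage markers was 1.65, 1.46 and 0.960 times the WT VEH mean. The same ratios were 1.56, 1.36 and 1.07 for endothelial, 1.49, 1.43 and 0.989 for smooth muscle and pericyte, 1.29, 1.13 and 0.960 for fibroblast and 0.830, 0.879 and 1.01 for cardiomyocyte markers. The cardiomyocyte markers did not all fall. Myl2 (6493 CPM in WT VEH, 7230 in WT JZL184 and 7696 in CD VEH) and Tnni3 (2786, 2962 and 3288 CPM) had higher means in these groups, without being DEGs against WT VEH. The other cardiomyocyte markers, led by Myh6, had lower means in WT JZL184 and CD VEH than in WT VEH. Endothelial sums ran from 545 to 555 CPM in WT VEH, 840 to 873 in WT JZL184, 704 to 772 in CD VEH and 537 to 630 in CD JZL184. Atrial markers did not follow this order, at 0.880 (WT JZL184), 0.534 (CD VEH) and 0.562 (CD JZL184) times the WT VEH mean.

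Against WT VEH, Tgfb1 was a higher DEG in both WT JZL184 and CD VEH, Tgfbr2 and Postn in WT JZL184 and Smad7 in CD VEH. In CD VEH against WT VEH, 5 of 6 macrophage, 6 of 7 endothelial, 5 of 7 tested smooth muscle and pericyte and 4 of 8 fibroblast markers were higher DEGs, and 3 of 8 cardiomyocyte markers were lower, beside 15.0% higher and 15.4% lower among all genes. Without CD VEH mouse A the higher counts were 1, 6, 2 and 2 in the same order, and 1 cardiomyocyte marker was lower. No share over all genes is given for the fits without that mouse. Under JZL184 in WT hearts, 6 of 6 macrophage, 7 of 7 endothelial, 6 of 7 smooth muscle and pericyte and 5 of 8 fibroblast markers were higher and 4 of 8 cardiomyocyte markers lower, beside 15.4% higher and 14.0% lower among all genes. Under JZL184 in CD hearts, 6 of 6 macrophage, 6 of 7 endothelial, 4 of 7 smooth muscle and pericyte, 4 of 8 fibroblast and 4 of 4 erythroid markers were lower, and of 8 cardiomyocyte markers 4 were higher and 1 lower, beside 16.8% higher and 17.0% lower among all genes. Without CD VEH mouse A the lower counts were 4, 5, 3, 4 and 0 in the same order, and 3 cardiomyocyte markers were higher and 0 lower, so that the erythroid calls rested on that mouse. Lymphocyte markers summed to at most 2.88 CPM and adipocyte markers to at most 0.982 CPM in any mouse. Mitochondrial genes took 39.4% to 41.2% of counts in WT VEH, 45.0% to 46.6% in WT JZL184, 43.5% to 44.7% in CD VEH and 36.4% to 40.1% in CD JZL184. The part of cell types, of erythroid RNA in CD VEH mouse A and of mitochondrial RNA in the changes of the 10 genes was not tested.

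**Figure D5:**
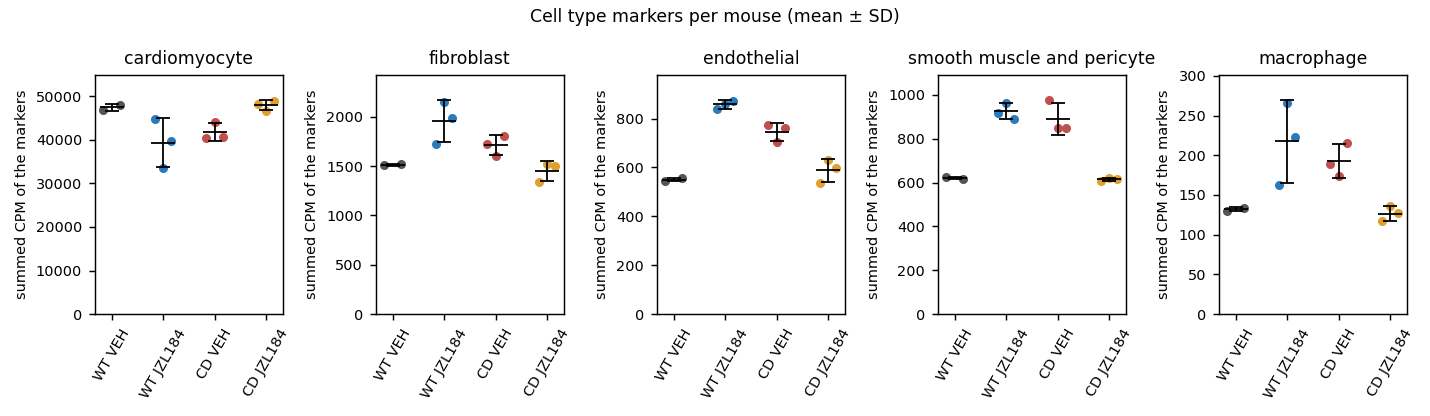
Summed CPM of 5 marker lists in each of the 11 mice (points) by group, with the mean and SD (black bars). Endothelial, smooth muscle and pericyte, and macrophage sums of WT JZL184 and CD VEH lie above all WT VEH and CD JZL184 mice, and cardiomyocyte sums lie below them.

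Levels of the 10 genes were finally compared with each other over the 11 mice, as a description, since all share the same libraries and groups. Pearson's r of log2 CPM was 0.87 between Tgfbr2 and Postn, 0.84 between Tgfb3 and Postn, 0.79 between Tgfb1 and Tgfbr2 and 0.75 between Tgfb1 and Smad7. It was -0.80 between Tgfbr3 and Postn and -0.72 between Smad3 and Smad7. Among Tgfb1, Tgfb3, Tgfbr2, Smad7 and Postn every r was between 0.65 and 0.87. With these 5 genes Tgfbr3 had r of -0.37 (Tgfb1) to -0.80 (Postn) and Smad3 of -0.33 (Tgfbr2) to -0.72 (Smad7).

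Among all tested genes, the closest in pattern to Tgfb1 were H2-T22 and Wasf2 (r = 0.98 for both). For Postn they were Casp12 (r = 0.98) and Tmem106a (r = 0.97), and for Smad7 they were Nipsnap3b (r = 0.98) and 0610012G03Rik (r = 0.97). Tgfbr2 was closest to Thsd1 and Gsn (r = 0.97 for both), Gsn being on the fibroblast marker list. Tgfbr3 was closest to Hook2 and to Tbx5, a cardiac transcription factor (r = 0.96 for both), and Smad3 to Arhgef12 and Dhdds (r = 0.92 for both). The 2 nearest genes were Dpy19l1 (r = 0.95) and Ptgis (r = 0.94) for Tgfb3, Spred1 (r = 0.91) and Itpr1 (r = 0.88) for Tgfb2, Zfp189 (r = 0.87) and Mllt3 (r = 0.81) for Smad2, and Zcchc7 and Tbc1d23 (r = 0.84 for both) for Tgfbr1.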

How the data were processed

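RNA of the hearts of 11 mice, labelled as ventricle, was measured. Transcripts were quantified by the authors (Salmon 0.7.2, annotation Ensembl 85 on GRCm38, tximport 1.2.0), and the deposited table lists estimated counts for each gene in each mouse, not normalized. The number of columns without a group was 0. A column is named by group and by a letter that no label holds, which ties it to a group only.

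After rounding, the estimated counts were fitted with edgeR 4.0.16 in R 4.3.3 (TMM, quasi-likelihood test, limma 3.58.1), with all 4 groups in one model. Genes entered at a mean log2 CPM of 1 or more. Counts were not corrected for transcript usage. Correlations used log2 CPM with a prior count of 2. Gene positions and longest transcripts came from GENCODE mouse release M21, which matched 22238 of 22608 genes. The common biological coefficient of variation was 9.13%. The steps were tested on simulated counts.

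The members and lists were chosen with earlier results of these data known. Named were the 10 genes, the 2 genes with the highest Pearson r to each, up to 4 genes per pathway class with the largest log2 fold-change among DEGs of CD VEH against WT VEH, and markers beside a result. The collagen genes and Cdkn1a were picked with their values known. As alternatives, DESeq2 1.42.0, RLE scaling, no filter on low counts, only the compared groups, no mitochondrial genes, an offset for gene length (loess, span 0.5, 11240 genes), a threshold of 0.01 and the omission of each mouse were run. The number of alternatives differs between comparisons because only mice of the compared groups were left out, and it does not include the threshold of 0.01 or a fit with the letter of the column as a block, which was added after seeing the data. Floors cover counting error only.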

Additional observations from a re-analysis of the deposited data

Results flagged for a closer look

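JZL184 had different effects in CD and in WT mice on 6 of the 10 genes, by the interaction term of edgeR's model. The effect in CD minus that in WT mice was -0.87 for Tgfb1, -0.51 for Tgfb3, -0.45 for Tgfbr2, 0.37 for Smad3, -0.83 for Smad7 and -1.27 for Postn on the log2 scale. The edgeR adjusted p-values were 0.00173, 0.0183, 0.0127, 0.0165, 0.00263 and 0.00148 in that order. Over all genes tested the term was significant for 51.5%. Without WT VEH mouse D the terms of Tgfb3, Tgfbr2 and Smad3 were no longer significant (adjusted p 0.0566, 0.0560 and 0.0601), and without WT VEH mouse C that of Tgfb3 was not (0.0582). With an offset for gene length the term of Smad3 was not significant (0.0898). No group had 4 or more mice, so single mice were not tested as outliers.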

How the results depend on the processing

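The replicate numbers in the labels are not in the table, whose columns carry letters that no label explains. Mice of the same letter in CD VEH and CD JZL184 did not deviate together over the genes tested (Pearson r 0.036 for A, -0.10 for C and -0.0015 for E), so the letters were not taken to pair them. Between WT JZL184 and CD JZL184 r was 0.31 for the shared letter A, beside 0.30 for WT JZL184 mouse B and CD JZL184 mouse C. A fit with the letter as a replicate block, chosen after seeing the data, gave 3, 1, 4, 1 and 0 DEGs among the 10 genes in CD VEH against WT VEH, WT JZL184 against WT VEH, CD JZL184 against CD VEH, CD JZL184 against WT JZL184 and CD JZL184 against WT VEH, and 5 for the interaction. In the wider list it gave 18, 9, 28 and 13 for the first 4. With a mouse left out, the DEGs among the 10 genes ranged from 0 to 2 in CD VEH against WT VEH, 0 to 5 in WT JZL184 against WT VEH, 0 to 2 in CD JZL184 against CD VEH, 3 to 6 in CD JZL184 against WT JZL184 and 3 to 7 for the interaction. An adjusted p under 0.01 left 0 DEGs in CD VEH against WT VEH. Fitting only the compared groups gave 1 for WT JZL184 against WT VEH and 5 for CD JZL184 against CD VEH, and the length offset gave 5 for WT JZL184 against WT VEH. Where a WT VEH mouse is left out, the lone other mouse is assumed to vary like the other groups. In the wider list the range with a mouse left out was 2 to 23, 8 to 37, 14 to 29 and 24 to 46 for the first 4 comparisons in the same order. The length offset gave 15 for CD VEH against WT VEH and fitting only the compared groups gave 19 for WT JZL184 against WT VEH. No share over all genes is given for any of these alternative fits, so their counts are not read against a background. Without division by length, the ligand shares in WT VEH were 41.0% for Tgfb1, 16.3% for Tgfb2 and 42.7% for Tgfb3, so that Tgfb3 took the place of Tgfb1 as the largest.

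Sign changes occurred only for log2 fold-changes that were not significant in the reported fit or in the alternative. With the length offset these were Tgfb2 in CD VEH against WT VEH (0.089) and CD JZL184 against CD VEH (-0.071), Tgfbr1 in CD VEH against WT VEH (0.0049), WT JZL184 against WT VEH (0.033), CD JZL184 against CD VEH (-0.045), CD JZL184 against WT JZL184 (-0.073) and the interaction (-0.078), Tgfbr2 in CD JZL184 against WT VEH (0.011), Tgfbr3 in CD JZL184 against CD VEH (-0.0077) and the interaction (-0.0051), and Smad2 in CD JZL184 against CD VEH (-0.047) and CD JZL184 against WT JZL184 (-0.091). Without the filter on low counts, Tgfb2 in CD VEH against WT VEH was 0.0070 and Tgfbr2 in CD JZL184 against WT VEH was 0.0079, and with only the compared groups the latter was 0.0012. With a mouse left out, the ranges that crossed 0 were -0.18 to 0.19 (CD VEH against WT VEH), -0.064 to 0.13 (CD JZL184 against CD VEH) and -0.16 to 0.21 (CD JZL184 against WT VEH) for Tgfb2, -0.13 to 0.024 (WT JZL184 against WT VEH), -0.044 to 0.044 (CD JZL184 against WT JZL184) and -0.12 to 0.032 (CD JZL184 against WT VEH) for Tgfbr1, -0.062 to 0.074 (CD JZL184 against WT VEH) for Tgfbr2, -0.0070 to 0.033 (CD VEH against WT VEH) for Tgfbr3, -0.031 to 0.18 (CD VEH against WT VEH), -0.0011 to 0.094 (CD JZL184 against WT JZL184) and -0.14 to 0.073 (interaction) for Smad2, and -0.047 to 0.11 (CD JZL184 against WT VEH) for Smad7. Calls gained in CD JZL184 against CD VEH were Tgfb1 (adjusted p 0.0482), Tgfb3 (0.0213) and Smad3 (0.0196) with only the compared groups, Tgfb3 with DESeq2 (0.0467) and Tgfbr2 (0.0474) with the length offset. The cause of these changes was not tested. With the letter block the sign changed for Tgfb2 (-0.0090), Tgfb3 (0.011), Tgfbr2 (0.030), Smad3 (0.018) and Smad7 (-0.015) in CD JZL184 against WT VEH, for Tgfbr1 (-0.011) and Smad2 (-0.064) in CD JZL184 against WT JZL184 and for Smad2 (-0.041) in CD VEH against WT VEH. All other values of the 10 genes kept their direction under the alternatives run.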
